A study of Bos taurus with 23 samples.

Results

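The peroxide defence enzymes described here are 10 genes of Bos taurus: SOD1, SOD2, CAT, GPX4, GSTM3, PRDX1, PRDX2, PRDX3, PRDX5 and PRDX6. Apart from GSTM3, a glutathione transferase, they encode enzymes that remove superoxide, hydrogen peroxide or lipid peroxides. They were chosen by gene symbol among 9155 genes named on a bovine Affymetrix array, and all 10 have at least 1 probe set. Of 24016 probe sets that are not controls, 14 carry one of these symbols alone. Testing required a log2 value over 4, taken here as the background level, on 2 or more arrays. This filter kept 13 of the 14 member probe sets, and the one left out, the PRDX6 probe set Bt.5319.3.S1_at, lay between 2.62 and 3.75 on all 23 arrays.

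The study followed polyadenylated RNA from the bovine oocyte to the blastocyst in 8 groups. In vitro oocytes are on 3 arrays, and the labels do not give how they were cultured or matured. In vivo oocytes, also on 3 arrays, were aspirated from follicles about to ovulate in 9 animals on the day of oestrus (day 0). Embryos developed in donors inseminated with semen of 1 bull. Oviducts of 24 cows, flushed between day 1 and day 4, gave 3 arrays of zygotes, 2 of 2-cell, 2 of 4-cell and 4 of 8-cell embryos. The uteri of 7 animals, flushed on day 7 or 8, gave 3 arrays of morulae and 3 of blastocysts. The design text describes the latest oviductal stage as holding embryos of up to 16 cells, while the sample labels call it 8-cell. Each embryo array holds a pool of 10 embryos, or of 5 for blastocysts, so no value belongs to a single embryo or cow. Arrays of a group are labelled as biological replicates. Whether pools shared donors is not stated, so p-values measure the spread between these pools.

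Superoxide dismutases turn superoxide into hydrogen peroxide, SOD1 in the cytosol with copper and zinc and SOD2 in the mitochondrial matrix with manganese. Hydrogen peroxide is then removed by catalase in peroxisomes, by glutathione peroxidases with electrons from glutathione, and by peroxiredoxins, most of which draw electrons from thioredoxin. Mammalian oocytes and early embryos produce peroxide through mitochondrial respiration and carry these enzymes and their mRNAs over from oogenesis until the embryonic genome is transcribed, which in cattle happens mainly around the 8-cell stage.

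Array medians ran from 3.28 to 3.60, and 43.3% to 47.0% of probe sets exceeded 4. Arrays of 1 group correlated between 0.899 and 0.990 over probe sets, with the lowest value among 8-cell embryos. All 9 oocyte markers exceeded 4 on every array up to the 8-cell stage, and all 7 trophectoderm markers did so on every blastocyst array, as the labels have it. The morula arrays had 5 to 7 of these 7 over 4, so this count does not set all morulae apart from blastocysts. Array 2 of the in vivo oocytes stood apart, with 13 of 19 cumulus and granulosa markers over 4 against 6 and 7 on the other in vivo oocyte arrays. There HSD17B1, INHA and FST of that list reached 11.03, 10.95 and 9.32, while FSHR, LHCGR, AMH and FOXL2 of the same list lay below 4. Array 1 of the 4-cell embryos carried 10 of 13 blood and leukocyte markers against 2 on array 2, although the haemoglobin genes HBA and HBB lay below 4 there. Of the oviduct list 1 to 3 of 8 genes exceeded 4 on any array, and of the sperm and testis list 0 to 3 of 7. Array 1 of the 2-cell embryos carried 4 of 13 blood markers. Array 1 of the blastocysts had a summed oviduct marker level of 38.925 against 28.400 and 28.409 on the other blastocyst arrays. Only 3 of 8 oviduct genes exceeded 4 there, against 2 on each of the others, and the lactoferrin gene LTF was at 13.18 against 3.14 and 2.42. Array 1 of the 2-cell embryos also had a raised oviduct sum, at 40.721 against 24.092 on array 2, with LTF at 13.86. LTF was at 10.94 on array 3 of the 8-cell embryos. The in vitro oocytes had oviduct sums of 30.718 to 35.361, with SERPINA14 at 6.24, 9.23 and 10.57. In the 8-cell embryos the haemoglobin gene HBB was at 10.79, 7.07, 7.29 and 10.54, against 2.51 and 2.50 in the 4-cell embryos and 4.45, 8.62 and 9.89 in the morulae, with HBA below 4 on all these arrays. The oviduct glycoprotein gene OVGP1 was at 7.96 and 7.62 on arrays 1 and 4 of the 8-cell embryos and below 4 on every other array of the series. The part of these markers in the results for 8-cell embryos and morulae was not tested. Some recomputations below left out 4 arrays that stood out on a marker list. These were array 2 of the in vivo oocytes and array 1 each of the 2-cell embryos, 4-cell embryos and blastocysts. All 8-cell and morula arrays stayed in.

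Every one of the 10 genes changed somewhere between the in vivo oocyte and the blastocyst. An F test over the 7 in vivo groups (limma) gave an adjusted p under 0.05 for 12 of 13 member probe sets, beside 88% of all 14571 probe sets tested, so passing that test does not set the members apart. The time of change was uneven. From 2-cell to 4-cell embryos limma called 0 of 13 member probe sets, with 0 at p under 0.05 before adjustment, beside 0.0137% of all. From 4-cell to 8-cell embryos 10 of 13 were lower and 0 higher (0 also at an unadjusted p under 0.05, limma), beside 33.6% and 29.8% of all probe sets tested. From the 8-cell embryo to the morula 9 were higher and 2 lower, beside 27% and 28.5%. From morula to blastocyst limma called 0 of 13, with 1 at p under 0.05 before adjustment, beside 8.96% of all. Taking the brightest probe set of each of the 10 genes, the median difference was -2.75 on the log2 scale from 4-cell to 8-cell. From 8-cell to morula it was 1.73. The medians of all probe sets tested were -0.03 and -0.01. The other tested probe sets of PRDX3 and PRDX6 are not part of the member medians. The 8-cell arrays serve both of these steps, so the fall into the 8-cell stage and the rise out of it are not independent of each other. In pooled embryos fewer cells that express a gene and less RNA per cell cannot be told apart. From 8-cell to morula the donors, the site of flushing and the day changed with the stage and cannot be told apart from it. The same holds from oocyte to zygote and from oocyte to blastocyst.

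**Figure D1:**
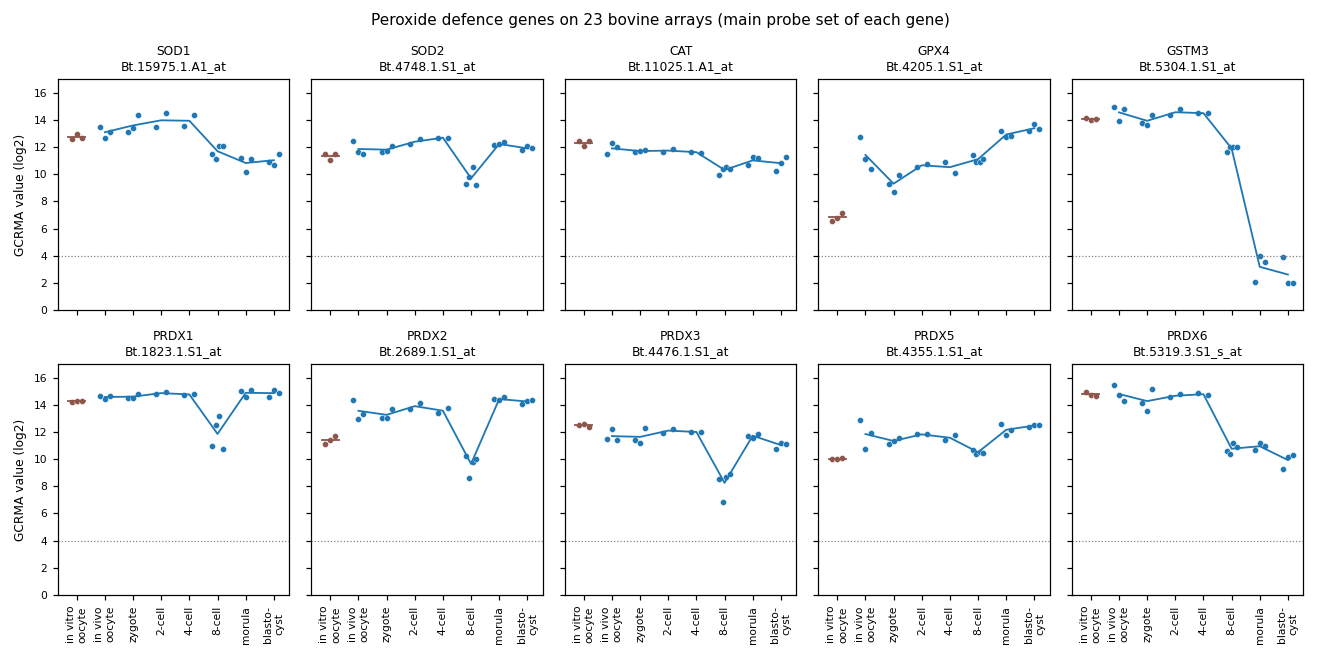
Expression of the 10 peroxide defence genes in the 8 groups, with the log2 GCRMA value of each gene's brightest probe set on the vertical axis and the groups in order of development on the horizontal axis. Each point is 1 array, lines join the means of the in vivo groups, and a dotted line marks the background level of 4; PRDX1, PRDX2, PRDX3 and SOD2 dip on the 4 arrays of 8-cell embryos and return in the morula, whereas GSTM3 drops to background in the morula and GPX4 is lowest in the in vitro oocytes.

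Among the dismutases, SOD1 and SOD2 shared the fall at the 8-cell stage and parted afterwards. SOD1 values were 12.59, 12.97 and 12.68 in the in vitro oocytes, 13.47, 12.66 and 13.14 in the in vivo oocytes, 13.08, 13.38 and 14.32 in the zygotes, 13.46 and 14.48 in the 2-cell and 13.55 and 14.32 in the 4-cell embryos. They were then 11.51, 11.12, 12.08 and 12.06 in the 8-cell embryos, 11.21, 10.15 and 11.12 in the morulae and 10.93, 10.70 and 11.47 in the blastocysts. All 10 arrays from the 8-cell stage onward lay below all 13 earlier arrays. The fall from 4-cell to 8-cell embryos was -2.24 (95% interval -3.08 to -1.40, adjusted p = 6.36e-05), a 4.73-fold decrease. A further decrease to the morula of -0.87 passed at an adjusted p of 0.0439, but arrays of the groups overlapped. That call was lost without array 2 of the morulae, where the difference was -0.53 (adjusted p = 0.262), and without array 3 or 4 of the 8-cell embryos (adjusted p = 0.109 and 0.108). Blastocysts remained 4.17-fold below in vivo oocytes (adjusted p = 7.75e-05), with no overlap of arrays.

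SOD2, the mitochondrial enzyme, fell and came back. Its values were 12.70 and 12.68 in 4-cell embryos, 9.30, 9.77, 10.54 and 9.18 in 8-cell embryos and 12.15, 12.19 and 12.34 in morulae. The 8-cell arrays lay below every other array of the series, which otherwise ranged from 11.05 to 12.70. The decrease was 7.98-fold (-3.00, 95% interval -3.66 to -2.34, adjusted p = 9.23e-08) and the increase 5.78-fold (2.53, 95% interval 1.95 to 3.11, adjusted p = 2.34e-07). In the blastocysts, at 11.76, 12.06 and 11.90, SOD2 differed from the in vivo oocytes, at 12.43, 11.62 and 11.52, by 0.05 (95% interval -0.58 to 0.67, adjusted p = 0.923). The 3 in vitro oocytes, at 11.50, 11.05 and 11.49, lay just under the in vivo oocytes, a difference of -0.51 that did not pass (adjusted p = 0.369).

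Catalase, which splits hydrogen peroxide without a reducing partner, fell less at the 8-cell stage than any other passing member except PRDX5. CAT was 12.41, 12.09 and 12.47 in the in vitro oocytes, 11.46, 12.27 and 11.99 in the in vivo oocytes and 11.58 to 11.83 on the 7 arrays of zygotes, 2-cell and 4-cell embryos. The 8-cell embryos gave 9.98, 10.36, 10.51 and 10.42, the morulae 10.66, 11.24 and 11.17 and the blastocysts 10.28, 10.86 and 11.30. All 13 arrays up to the 4-cell stage lay above all 10 later ones. The fall to the 8-cell stage was -1.31 (95% interval -1.88 to -0.73, adjusted p = 0.000356), or 2.48-fold. The morula was 1.63-fold above the 8-cell embryos (adjusted p = 0.0189), a call lost without array 1 of the 8-cell embryos (adjusted p = 0.0573), or array 2 or 3 of the morulae (adjusted p = 0.0828 and 0.0704), and with arrays centred on the spike-in controls (adjusted p = 0.145). Blastocysts stayed 2.13-fold below in vivo oocytes (-1.09, adjusted p = 0.00104). Without the 4 arrays that stood out on a marker list, that last difference was -0.64 (adjusted p = 0.0598).

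GPX4, the selenoenzyme that reduces lipid hydroperoxides within membranes, followed another course from the rest. It was 6.56, 6.80 and 7.11 in the in vitro oocytes and 12.78, 11.10 and 10.37 in the in vivo oocytes. The zygotes gave 9.27, 8.71 and 9.94, the 2-cell embryos 10.55 and 10.77 and the 4-cell embryos 10.93 and 10.11. The 8-cell embryos were at 11.44, 10.93, 10.92 and 11.15, the morulae at 13.16, 12.77 and 12.84 and the blastocysts at 13.19, 13.67 and 13.30. The in vitro oocytes lay below all other arrays of the series by more than a log2 unit, and morulae and blastocysts were the highest groups, apart from the first in vivo oocyte array, which reached the morula values. GPX4 is the member whose main probe set did not fall into the 8-cell stage: the difference from 4-cell embryos was 0.59 (95% interval -0.37 to 1.55, adjusted p = 0.279).

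The rise of GPX4 to the morula was 3.52-fold (1.81, adjusted p = 0.000775), and blastocysts were 3.92-fold above in vivo oocytes (1.97, adjusted p = 0.000506). Zygotes were 4.32-fold below in vivo oocytes (-2.11, adjusted p = 0.0087). That fall depends on the arrays used: without array 2 of the zygotes it was -1.81 (adjusted p = 0.059), with arrays centred on spike-in controls its adjusted p was 0.0952, and with the spread of the compared arrays alone 0.423. In the order of group means, blastocysts lay just above morulae without overlap, although their difference of 0.46 did not pass (adjusted p = 0.671). The in vivo oocytes came next and overlapped with both the morulae and the 8-cell embryos. The 2-cell embryos lay apart from the 8-cell embryos and overlapped with the 4-cell embryos, while zygotes and in vitro oocytes each lay apart from the group above.

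GSTM3, a mu-class glutathione transferase that joins glutathione to electrophiles, was the only member to drop to background. It was 14.17, 14.01 and 14.07 in the in vitro oocytes, 14.96, 13.92 and 14.79 in the in vivo oocytes and between 13.65 and 14.77 on the 7 arrays of zygotes, 2-cell and 4-cell embryos. The 8-cell embryos gave 11.61, 11.99, 11.98 and 12.04, the morulae 2.05, 4.00 and 3.52 and the blastocysts 3.88, 1.98 and 2.00. The levels formed steps that did not overlap, with the oocytes and early embryos on top, the 8-cell embryos between, and morulae and blastocysts at the bottom. From 4-cell to 8-cell embryos GSTM3 fell by 2.59 on the log2 scale, or 6.04-fold (adjusted p = 0.000128), and from 8-cell embryo to morula at least 239.3-fold (adjusted p = 4.22e-12). Blastocysts were at least 1504.2-fold below in vivo oocytes (adjusted p = 7.24e-14). These folds are lower bounds because values below 4 in the lower group were raised to 4. The summed level of the 9 oocyte markers moved alongside, from 120.749 to 122.183 in 4-cell embryos, 74.004 to 91.307 in 8-cell embryos and 27.942 to 30.158 in morulae; the part of that shift in the GSTM3 result was not tested.

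The peroxiredoxins PRDX1 and PRDX2 are cytosolic and recycled by thioredoxin. PRDX1 was 14.19 to 15.08 on the 19 arrays outside the 8-cell group and 10.99, 12.53, 13.17 and 10.72 in the 8-cell embryos. Every 8-cell array lay below every other array. The fall from the 4-cell embryos, at 14.73 and 14.79, was 7.49-fold (-2.91, 95% interval -3.80 to -2.01, adjusted p = 7.02e-06), and the rise to the morulae, at 14.99, 14.59 and 15.05, was 8.14-fold (3.02, 95% interval 2.23 to 3.82, adjusted p = 1.23e-06). The spread among 8-cell arrays was wide, with arrays 2 and 3 above arrays 1 and 4. The summed oocyte marker level had the same order, at 89.585 and 91.307 on arrays 2 and 3 against 75.654 and 74.004 on arrays 1 and 4, and its part in the PRDX1 spread was not tested.

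PRDX2 showed the deepest dip among the genes with a single probe set. It was 14.38, 12.98 and 13.30 in the in vivo oocytes, 13.04, 13.05 and 13.67 in the zygotes, 13.66 and 14.13 in the 2-cell and 13.36 and 13.76 in the 4-cell embryos. The 8-cell embryos gave 10.22, 8.60, 9.79 and 9.99, the morulae 14.40, 14.31 and 14.55 and the blastocysts 14.05, 14.30 and 14.37. The 8-cell arrays were again the lowest of the series, and here arrays 2 and 3 were not the highest of the 4. The fall was 15.1-fold (-3.91, 95% interval -4.70 to -3.13, adjusted p = 2.52e-08) and the rise 27.3-fold (4.77, 95% interval 4.08 to 5.46, adjusted p = 3.96e-10). Blastocysts and in vivo oocytes differed by 0.68 (adjusted p = 0.0991), and without array 1 of the in vivo oocytes by 1.10 (adjusted p = 0.00938).

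PRDX3 is the peroxiredoxin of the mitochondrial matrix, and its pair of probe sets gave different results. On the brighter one, Bt.4476.1.S1_at, 4-cell embryos were at 12.00 and 11.99, 8-cell embryos at 8.56, 6.87, 8.68 and 8.92 and morulae at 11.73, 11.56 and 11.87. It fell 13.4-fold (-3.74, adjusted p = 2.29e-07) and rose 11.1-fold (3.47, adjusted p = 1.68e-07), with no overlap of arrays. On the other, Bt.5092.1.S1_at, the same 8-cell arrays read 8.84, 10.47, 11.04 and 9.12, against 9.89 and 9.93 in 4-cell embryos and 9.62, 10.03 and 10.21 in morulae. There the 8-cell arrays lay on both sides of their neighbours, and the differences were -0.04 (95% interval -1.01 to 0.93, adjusted p = 0.968) and 0.08 (95% interval -0.77 to 0.94, adjusted p = 0.899). It was also the member probe set that did not pass the F test over the in vivo groups (adjusted p = 0.891). Arrays 2 and 3, the higher ones on this probe set, are those with the higher summed oocyte marker level given above. Blastocysts, at 10.77, 11.20 and 11.12 on the brighter probe set, lay below all in vivo oocytes, at 11.48, 12.21 and 11.39, but the difference of -0.66 did not pass (adjusted p = 0.154).

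PRDX5, found in mitochondria, peroxisomes and cytosol, changed less. Its values were 11.38 and 11.76 in 4-cell embryos, 10.65, 10.40, 10.55 and 10.44 in 8-cell embryos, 12.58, 11.75 and 12.15 in morulae and 12.39, 12.52 and 12.51 in blastocysts. The 8-cell arrays lay below every array of the other embryo groups, and above the in vitro oocytes at 10.02, 10.02 and 10.07. The fall from the 4-cell stage was 2.09-fold (-1.06, adjusted p = 0.0157), and it did not pass without array 2 of the 4-cell embryos (-0.87, adjusted p = 0.136). The rise to the morula was 3.14-fold (1.65, adjusted p = 0.000209). The in vivo oocytes spread from 10.74 to 12.87, and array 1 was the highest. Against blastocysts their difference of 0.63 did not pass (adjusted p = 0.117), but it passed without array 1 of the in vivo oocytes (1.14, adjusted p = 0.00181), and the zygote was lower than the in vivo oocyte without array 2 (-1.06, adjusted p = 0.0155) and without the 4 arrays that stood out on a marker list (adjusted p = 0.0292), but not with all arrays (adjusted p = 0.68).

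PRDX6 carries a single active cysteine, is recycled with glutathione and also has phospholipase activity, and its 3 tested probe sets disagreed. The brightest, Bt.5319.3.S1_s_at, bears the name ending that Affymetrix gives to probe sets whose probes can match transcripts of several genes. It was 14.94, 14.75 and 14.65 in the in vitro oocytes, 15.43, 14.69 and 14.25 in the in vivo oocytes and 14.86 and 14.69 in the 4-cell embryos, then 10.58, 10.41, 11.21 and 10.86 in the 8-cell embryos. The morulae stayed at 10.68, 11.16 and 10.99 and the blastocysts at 9.30, 10.15 and 10.34. Early and late groups did not overlap. On this probe set PRDX6 fell 16.1-fold into the 8-cell stage (adjusted p = 1.52e-08) and was 29.1-fold lower in blastocysts than in in vivo oocytes (adjusted p = 3.35e-10). The morula differed from the 8-cell embryo by 0.18 (95% interval -0.50 to 0.87, adjusted p = 0.683). Every blastocyst array lay below every morula array, by -1.02 on average (95% interval -1.75 to -0.28), which did not pass (adjusted p = 0.081).

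The other tested PRDX6 probe sets rose into the morula instead. On Bt.5319.1.S1_at, in vivo oocytes were at 10.06, 10.14 and 9.82, 4-cell embryos at 10.55 and 10.36, 8-cell embryos at 6.90, 6.05, 7.65 and 6.80, morulae at 11.87, 11.12 and 11.82 and blastocysts at 12.30, 12.02 and 12.04. This is the dip of PRDX1 and PRDX2 with a higher end: a 12.1-fold fall (adjusted p = 6.45e-08), a 27.0-fold rise (adjusted p = 3.36e-10) and blastocysts 4.32-fold above in vivo oocytes (adjusted p = 2.46e-05). On Bt.5319.2.S1_a_at, in vivo oocytes were at 8.20, 7.23 and 7.59, zygotes at 4.81, 4.52 and 4.69, 4-cell embryos at 7.23 and 6.87, 8-cell embryos at 6.64, 7.15, 7.65 and 5.04, morulae at 11.72, 10.95 and 11.45 and blastocysts at 10.67, 11.73 and 12.04. Here the low group was the zygote, 8.00-fold below the in vivo oocytes (adjusted p = 0.00346), and the 8-cell embryos overlapped with the 4-cell embryos (-0.43, adjusted p = 0.54). The rise from 8-cell embryo to morula was 26.9-fold (adjusted p = 1.49e-07). For PRDX6, blastocyst against oocyte is therefore lower on 1 probe set and higher on the other 2, and the direction for the gene is not settled by these arrays.

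**Figure D2:**
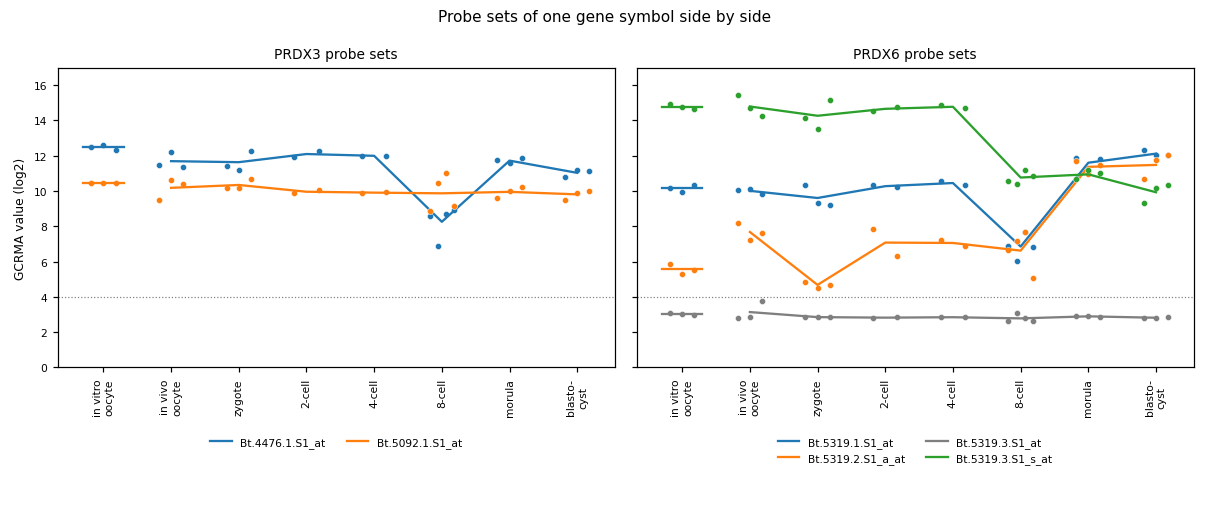
The genes with more than 1 probe set, PRDX3 and PRDX6: each line joins the means of the in vivo groups for 1 probe set in log2 GCRMA values. Each array is a point, a dotted line marks the background level of 4, and a short bar at the left gives the mean of the in vitro oocytes. The PRDX6 probe sets part in the morula, where 2 rise to over 11 while the brightest in the oocytes stays near the 8-cell level, and a further PRDX6 probe set lies below 4 throughout.

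To set the stages on either side of the 8-cell embryo against each other, the morula was compared with the 4-cell embryo, a comparison chosen after the dip was seen. Of 13 member probe sets 3 were higher and 3 lower in the morula, beside 31.2% and 32.9% of all tested. PRDX1 differed by 0.12 (95% interval -0.83 to 1.06, adjusted p = 0.861), PRDX3 on its brighter probe set by -0.27 (95% interval -1.20 to 0.66), SOD2 by -0.46 (95% interval -1.16 to 0.23) and PRDX2 by 0.86 (95% interval 0.03 to 1.69, adjusted p = 0.0651). For these genes the 8-cell values stood out while the difference between its neighbours did not pass, which does not show equal levels. With the spread of the compared arrays alone, PRDX2 passed as higher in the morula (adjusted p = 0.00733) and SOD2 as lower (adjusted p = 0.0196). GPX4 was 5.29-fold higher in the morula (adjusted p = 0.000219), and SOD1 8.61-fold (adjusted p = 2.33e-06) and GSTM3 at least 1444.6-fold lower (adjusted p = 1.16e-12). The PRDX6 probe sets were 2.22-fold and 19.9-fold higher and 14.2-fold lower. The smallest of these, on Bt.5319.1.S1_at with an adjusted p of 0.0143, did not pass without array 2 of the 4-cell embryos (adjusted p = 0.0862) or array 1 of the morulae (adjusted p = 0.0504). Without the 4 arrays that stood out on a marker list it was 1.25 on the log2 scale and did not pass either (adjusted p = 0.0594).

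The comparison of in vitro with in vivo oocytes asks whether oocytes from culture carry the transcripts of those from the follicle. Of 13 member probe sets 4 were lower in the in vitro oocytes and 0 higher (0 also at an unadjusted p under 0.05, limma), beside 7.19% lower and 1.35% higher among all tested. GPX4 differed most: 6.82 ± 0.28 against 11.42 ± 1.23 (SD, n = 3 each), a 24.2-fold lower level (-4.60, 95% interval -5.50 to -3.69, adjusted p = 4.01e-06). PRDX2 was 11.14, 11.42 and 11.66 in vitro against 14.38, 12.98 and 13.30 in vivo, 4.42-fold lower (adjusted p = 0.000688). PRDX5 was 10.02, 10.02 and 10.07 against 12.87, 10.74 and 11.92, 3.50-fold lower (adjusted p = 0.00209). None of these 3 genes had overlapping arrays, and for each of them the in vivo arrays were more widely spread than the in vitro arrays. PRDX6 on Bt.5319.2.S1_a_at was 5.86, 5.29 and 5.52 against 8.20, 7.23 and 7.59 (4.34-fold lower, adjusted p = 0.0176). That call was lost without array 1 of the in vivo oocytes (adjusted p = 0.12) or array 2 or 3 of the in vitro oocytes (adjusted p = 0.0735 and 0.0553). The other tested PRDX6 probe sets did not pass, and their arrays overlapped. Mean values were 14.78 in vitro against 14.79 in vivo on Bt.5319.3.S1_s_at, and 10.15 against 10.01 on Bt.5319.1.S1_at.

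With the spread taken from the 6 oocyte arrays alone, none of the 4 differences passed (adjusted p = 0.0749 for GPX4, 0.0839 for PRDX2, 0.144 for PRDX5 and 0.0814 for PRDX6), and 1 of all 14571 probe sets tested did. For the remaining genes the differences were -0.47 for GSTM3 (95% interval -1.44 to 0.51), -0.32 for PRDX1, 0.79 for PRDX3, -0.34 for SOD1, -0.51 for SOD2 and 0.42 for CAT, none of which passed. That PRDX3 difference is of its brighter probe set, where every in vitro array lay above every in vivo array. Its values were 12.49, 12.62 and 12.35 against 11.48, 12.21 and 11.39, at an adjusted p of 0.276. On the other PRDX3 probe set, Bt.5092.1.S1_at, the arrays overlapped, at 10.46, 10.46 and 10.47 in vitro against 9.50, 10.65 and 10.40 in vivo. Without array 2 of the in vivo oocytes and the other marked arrays, the count of 4 lower probe sets was the same.

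The in vitro oocytes were also compared with the zygotes, a comparison that uses the same 3 in vitro arrays as the one above and is not independent of it. GPX4, PRDX2 and PRDX5 were 5.59-fold, 3.59-fold and 2.46-fold higher in zygotes (adjusted p = 0.00125, 0.00257 and 0.0206), and these 3 of 13 probe sets stand beside 7.3% higher among all tested. As lower, limma called 0 members, with 2 at p under 0.05 before adjustment, beside 2.55% of all. The PRDX5 call was lost without any one of the in vitro arrays (adjusted p = 0.0677, 0.0634 and 0.0591) or without array 2 or 3 of the zygotes (adjusted p = 0.0576 and 0.0814). For GPX4 the zygote was between the oocyte groups, with no overlap on either side. Against the in vivo oocytes, 2 of 13 member probe sets were lower in zygotes and 0 higher (0 also at an unadjusted p under 0.05, limma), beside 1.43% and 1.51%; they are those of GPX4 and PRDX6 named above. The count was 1 without array 2 of the zygotes and 3 without array 2 of the in vivo oocytes.

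From zygote to 2-cell embryo 1 of 13 member probe sets was higher, beside 1.39%, and 0 lower (0 also at an unadjusted p under 0.05, limma), beside 1.82%. It was PRDX6 on Bt.5319.2.S1_a_at, at 7.83 and 6.32 in the 2-cell embryos, a 5.28-fold difference (adjusted p = 0.0356). It did not pass without array 1 of the 2-cell embryos (1.64, adjusted p = 0.307) or without array 1 or 2 of the zygotes (adjusted p = 0.106 and 0.122). Without the 4 arrays that stood out on a marker list its adjusted p was 0.251. GPX4 was 1.36 higher on arrays that did not overlap, and did not pass (adjusted p = 0.139). Between in vivo oocyte and blastocyst, 3 of 13 probe sets were higher and 4 lower, beside 32.2% and 32.4% of all, and every one of these is given above by gene.

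**Figure D3:**
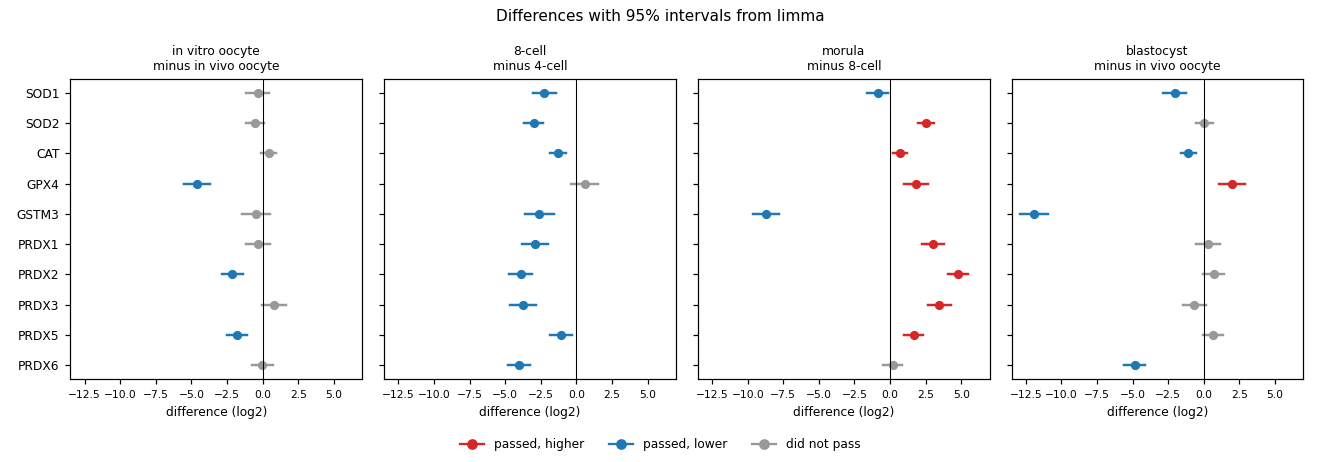
Log2 differences of the brightest probe set of each of the 10 genes, with 95% intervals from limma, in 4 comparisons (in vitro minus in vivo oocyte, 8-cell minus 4-cell, morula minus 8-cell and blastocyst minus in vivo oocyte). Red and blue points passed as higher and lower, and grey points did not pass; from 4-cell to 8-cell 9 genes are blue and GPX4 is grey, and from 8-cell to morula 7 are red while GSTM3 and SOD1 are blue.

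The enzymes that supply and repair the peroxide defence were counted in 6 wider lists that hold 72 tested genes. From 4-cell to 8-cell embryos 34 of the 72 genes were lower and 13 higher, with a median of -0.88, beside 33.6% lower and 29.8% higher among all probe sets tested. From 8-cell embryo to morula 31 were higher and 13 lower, with a median of 0.79, beside 27% and 28.5%. From 2-cell to 4-cell limma called 0 of 72, with 2 at p under 0.05 before adjustment, beside 0.0137%. Of 10 genes of glutathione synthesis and recycling 9 were lower in the 8-cell embryos and 1 did not pass, with a median of -2.94. Of 4 peroxidases and dismutases outside the 10 members 2 were higher at that step and 2 did not pass.

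In the glutathione list, GGCT, which frees cyclised amino acids from glutathione breakdown products, fell 59.8-fold into the 8-cell stage, from 13.30 ± 0.05 (SD, n = 2) to 7.40 ± 0.98 (SD, n = 4, adjusted p = 1.64e-08). GCLC, the catalytic subunit of the rate-limiting ligase of glutathione synthesis, fell at least 12.6-fold, from 8.15 ± 0.25 to 4.45 ± 0.63 (adjusted p = 3.51e-07). ESD, which hydrolyses glutathione thioesters, fell 29.0-fold (adjusted p = 1.49e-06). Of the 10 genes 5 were higher and 3 lower in the morula than in the 8-cell embryo, with OPLAH, an enzyme of glutathione breakdown, at least 10.1-fold higher (adjusted p = 5.33e-09); among all probe sets 27% were higher and 28.5% lower.

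PRDX4, the peroxiredoxin of the endoplasmic reticulum, rose 5.43-fold from 4-cell to 8-cell embryos, from 9.92 ± 0.17 to 12.37 ± 0.38 (adjusted p = 3.07e-06). CCS, the chaperone that delivers copper to SOD1, was just over the background level of 4 in 4-cell embryos, at 4.30 and 4.18. It rose 6.88-fold to the 8-cell embryos, from 4.24 ± 0.08 to 7.02 ± 0.10 (adjusted p = 1.61e-06), where SOD1 itself fell. It then fell 3.13-fold to the morula (adjusted p = 0.000217) and rose 3.50-fold to the blastocyst (adjusted p = 0.00187; 0.124 with the spread of the compared arrays alone). GPX1, the cytosolic glutathione peroxidase, was 2.25 lower on the log2 scale in 8-cell than in 4-cell embryos, which did not pass (adjusted p = 0.113). It rose 89.0-fold from 6.94 ± 0.84 in 8-cell embryos to 13.41 ± 0.18 in morulae (adjusted p = 3.62e-05). Before the morula it was high on array 2 of the in vivo oocytes, array 1 of the 2-cell and array 1 of the 4-cell embryos, at 11.33, 10.03 and 11.75, and between 6.24 and 8.15 on the other arrays. These are the arrays with 13 of 19 granulosa markers and with 4 and 10 of 13 blood markers over 4, and the part of those markers' cells in the GPX1 values was not tested.

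Of 22 genes of the thioredoxin, glutaredoxin and repair list 10 were lower and 3 higher in 8-cell than in 4-cell embryos, beside 33.6% and 29.8%, and 11 were higher and 2 lower in morulae than in 8-cell embryos, beside 27% higher and 28.5% lower among all. TXN2, the mitochondrial thioredoxin that recycles PRDX3, rose 50-fold into the 8-cell stage, from 5.32 ± 0.66 to 10.97 ± 0.86 (adjusted p = 3.03e-07), where the brighter PRDX3 probe set fell. The mitochondrial glutaredoxin GLRX2 rose 47.3-fold (adjusted p = 1.64e-11), and the sestrin SESN1 fell at least 20.6-fold (adjusted p = 8.22e-09). The cytosolic thioredoxin TXN rose 10.2-fold to the morula, from 10.61 ± 1.17 to 13.97 ± 0.28 (adjusted p = 7.3e-06). From morula to blastocyst 6 of the 22 were higher and 16 did not pass, beside 8.96% of all probe sets called in either direction. The methionine sulfoxide reductase MSRA rose at least 11.6-fold at this step (adjusted p = 9.43e-06). In the in vitro oocytes 4 of 22 were lower than in the in vivo oocytes and 18 did not pass, beside 7.19% lower among all. The largest fold was that of GLRX3, an iron-sulfur glutaredoxin, at 7.49 ± 0.59 against 11.12 ± 1.12 (SD, n = 3 each), 12.4-fold lower (adjusted p = 3.34e-05; 0.0819 with the spread of the oocyte arrays alone).

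GPX4 is a selenoprotein, and of 12 genes of selenoprotein synthesis and selenoproteins 4 were lower and 3 higher in 8-cell than in 4-cell embryos, beside 33.6% and 29.8% of all. SEPHS1, a selenophosphate synthetase paralogue, rose 47.5-fold (adjusted p = 1.25e-09) and fell 6.37-fold to the morula (adjusted p = 6.12e-06). SELENOP, the secreted selenium carrier, fell at least 121.9-fold, from 12.11 ± 0.11 to 5.10 ± 1.83 (adjusted p = 1.06e-07), and rose at least 54.9-fold to the morula (adjusted p = 3.07e-07). SELENOS, a selenoprotein of the endoplasmic reticulum, rose 178.5-fold into the 8-cell stage (adjusted p = 7.43e-09). Its values were 6.47 and 4.30 in 4-cell embryos and 12.39, 13.31, 13.39 and 12.37 in 8-cell embryos. The higher 4-cell value is that of array 1, which had 10 of 13 blood markers over 4, and their part in it was not tested. In the in vitro oocytes, where GPX4 was low, 1 of the 12 genes, SELENOS, was lower than in the in vivo oocytes (at least 2.38-fold, adjusted p = 0.00392), and 11 did not pass, beside 7.19% lower among all.

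NRF2, encoded by NFE2L2, switches on many of these genes when KEAP1 releases it. Of 17 genes of that pathway 8 were lower and 2 higher in 8-cell than in 4-cell embryos, beside 33.6% and 29.8% of all. In morulae 7 were higher and 4 lower than in 8-cell embryos, beside 27% and 28.5%. KEAP1 rose 9.04-fold into the 8-cell stage, from 7.94 ± 0.59 to 11.11 ± 0.26 (adjusted p = 3.14e-06). NQO1, a quinone reductase and a common NRF2 target, fell at least 57.5-fold, from 10.44 ± 0.49 to 4.27 ± 1.07 (adjusted p = 1.36e-09), and was 74.2-fold lower in blastocysts than in in vivo oocytes (adjusted p = 3.87e-10). HMOX1, the inducible haem oxygenase and another target, rose at least 24.7-fold from morula to blastocyst, from 4.07 ± 2.88 to 9.76 ± 0.86 (SD, n = 3 each, adjusted p = 0.000259; 0.112 with the spread of the compared arrays alone). NQO1 and HMOX1 therefore stood at opposite ends of the series, the one high up to the 4-cell stage and the other high in blastocysts.

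**Figure D4:**
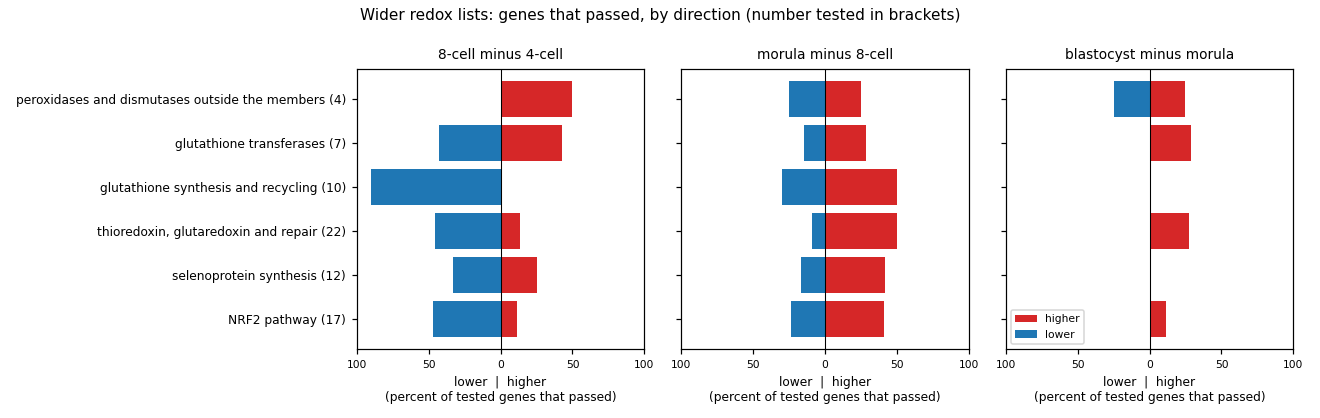
Percent of the tested genes of 6 wider redox lists that passed, with genes higher to the right of 0 in red and genes lower to the left in blue, for 8-cell minus 4-cell, morula minus 8-cell and blastocyst minus morula. The number of genes tested stands in brackets; glutathione synthesis and recycling has 9 of 10 genes lower in the first panel and 5 higher and 3 lower in the second.

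The genes whose group means ran most like those of a member were looked up among 8701 probe sets, as Pearson's r over 8 group means, which share their arrays and give a description only. GPX4 was most like BOLA2B (0.984), MDH2 (0.981) and PSME2 (0.980). GSTM3 was most like TBPL1 and GAD1 (0.999 each) and CCDC150 (0.998), and SOD1 like KCTD9 (0.997). PRDX1 ran with ARHGAP18 (0.991), PRDX2 with TMEM184B (0.984) and another probe set of MDH2 (0.980), and the brighter PRDX3 probe set with MAGOHB (0.994). PRDX5 was most like ACAA1 (0.978), SOD2 like SEPTIN11 (0.980) and CAT like GLMN (0.985), RPAP2 (0.985) and PEX7 (0.981). The brightest PRDX6 probe set ran with TTC32 (0.997).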

How the data were processed

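Poly(A)+ RNA was captured on oligo-dT beads, copied into biotin-labelled cRNA and hybridised, per the labels' protocols, so RNA without a poly(A) tail is not measured. The authors deposited log2 GCRMA expression values (GCRMA 2.0.0, per the submitters' processing notes). Such values are relative within an array, so RNA per embryo is not measured. The table was used as deposited. Symbols come from the platform annotation, and the gene IDs of all 14 member probe sets matched a RefSeq table. A gene with several probe sets is counted by the one with the highest mean over the 23 arrays.

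Testing used limma 3.58.1 under R 4.3.3. Group means of the 8 groups were fitted by lmFit, contrasts by contrasts.fit, and eBayes (trend on) shared the spread over 23 arrays at 15 residual degrees of freedom. Tests are two-sided, and p-values were adjusted by Benjamini-Hochberg over 14571 probe sets in each comparison, with 0.05 as threshold. The number of arrays limits the precision. Where an array of the lower group lay under 4, its arrays were set to at least 4 and the fold is given as at least that size. Named were the 10 members, up to 3 most similar genes each, and up to 3 genes with the largest passed change per wider list and comparison. The members and lists were chosen with earlier results of these data known. Alternatives were another centring, filter, trend and spread, a replicate block, single arrays left out and 4 marked arrays left out. The fit was checked on simulated data with independent normal noise and, for each probe set, the same spread in every group. That check does not cover groups of unequal spread.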

Additional observations from a re-analysis of the deposited data

Results flagged for a closer look

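Among the 4 arrays of 8-cell embryos, GSTM3 was 11.61 on array 1 against 11.98 to 12.04 on the other 3. The gap of array 1 to its nearest neighbour took up 0.875 of the range of the 4 arrays, above Dixon's 95% critical value for 4 samples. Of 13 member probe sets examined in this group 1 was past that value, and chance alone gives about 1 in 20.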

How the results depend on the processing

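Of 44 member results that passed, 537 recomputed values kept direction and call, 42 kept direction but no longer passed and 2 turned direction. Both that turned are PRDX6 taken as the mean of its tested probe sets in place of the brightest: blastocyst minus in vivo oocyte was then 0.35 and morula minus 4-cell 0.55. Of 86 that did not pass, 10 recomputed values passed. The count for in vitro against in vivo oocytes went from 4 to 0 with the spread of the compared arrays alone, where all called probe sets went from 1245 to 1. The count for zygote against in vivo oocyte went from 2 to 1 with arrays centred on spike-in controls (428 to 155 over all) and to 0 with the spread of the compared arrays alone (3 over all). The count for 2-cell against zygote went from 1 to 0 with spike-in centring, with no filter on low values, with the spread of the compared arrays alone and without the 4 marked arrays. Leaving out 1 array gave counts of 3 to 4 for the oocytes, 1 to 3 for zygote against in vivo oocyte, 0 to 1 for 2-cell against zygote, 0 to 0 for 4-cell against 2-cell, 9 to 10 for 8-cell against 4-cell, 9 to 11 for morula against 8-cell, 0 to 0 for blastocyst against morula, 7 to 9 for blastocyst against in vivo oocyte, 2 to 3 for zygote against in vitro oocyte and 5 to 6 for morula against 4-cell. A lone array left in a group borrowed its spread from the other groups. The causes of these changes were not tested.

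With the replicate number as a block the counts were 4, 2, 1, 0, 10, 10, 0, 7, 3 and 7 in the same order. The block ended the call for SOD1 from 8-cell embryo to morula (-0.74, adjusted p = 0.0824) and made 1 for CAT from 4-cell embryo to morula (-0.70, adjusted p = 0.0235). The labels do not say that numbers pair samples, and deviations of same-numbered arrays correlated between -0.377 and 0.491, with 5 of 24 pairs over 0.1. The GSTM3 bounds of 239.3, 1504.2 and 1444.6 became 336.9, 2457.5 and 2033.9 with a background level of 3, and 119.7, 752.1 and 722.3 with 5. Centring on the spike-in controls moved the median of all probe sets by over 0.1 for zygote minus in vivo oocyte (to 0.14), 4-cell minus 2-cell (-0.41), 8-cell minus 4-cell (-0.13), blastocyst minus in vivo oocyte (-0.39) and zygote minus in vitro oocyte (0.15).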

Other observations

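Among genes of the wider lists, GSTA2, an alpha-class glutathione transferase, was at 13.91 on array 2 of the in vivo oocytes and between 3.50 and 4.33 on the other 22 arrays. That array is the one with 13 of 19 cumulus and granulosa markers over 4. Blastocyst minus in vivo oocyte was -3.66 for GSTA2 and -0.34 without that array.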
